A study of Mus musculus with 6 samples.

Results

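The mouse genes named Zfp followed by a number encode zinc-finger proteins, and the 220 described here were those with a mean level of at least 1 FPKM over the 6 libraries of the series. FPKM is a read density scaled to transcript length and to library size. Of 394 protein-coding genes with such a symbol in the GENCODE M21 annotation, 298 had a level in the deposited tables, 78 of these were below 1 FPKM, and 96 had no level. The 220 genes were part of 9170 genes of any kind that reached the same mean. Measured mean levels therefore chose the members.

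The series asked what the mitochondrial chaperone GRP75, the product of Hspa9, does in early thymocytes. RNA was sequenced from DN3 thymocytes of Hspa9 cKO mice and of WT mice, 3 libraries each, all mice 5 weeks old and given no treatment. DN3 cells are early T cell precursors, sorted here as lineage-negative cells with CD25 and without CD4, CD8 or CD44, and it is at this stage that the beta chain of the T cell receptor is rearranged. The sources used here give neither the Cre line behind the conditional knockout nor whether each library came from its own animal. The p-values accordingly describe variation among 6 libraries, part of which may be technical. The tables hold no read counts, so depth is unknown.

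Most Zfp proteins bind DNA through tandem C2H2 fingers, each folded around a zinc ion held by a pair of cysteines and a pair of histidines. Many of them also carry a KRAB box, which recruits the corepressor TRIM28 and, through it, the histone methyltransferase SETDB1, and this machinery is best known for silencing retroelements. A few proteins with a Zfp symbol are CCCH proteins that bind AU-rich elements in messenger RNA and speed its decay. KRAB members arose by repeated local duplication and lie in clusters along the chromosomes.

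By the annotated proteins, 129 of the 220 members had a KRAB box together with C2H2 fingers, 86 had C2H2 fingers without a KRAB box, 1 was a CCCH protein and 4 had no match to either finger pattern. The symbol thus largely matched the finger structure. Members with a KRAB box had a median of 12 fingers and the others a median of 7, and the most in any member was 33, in Zfp142. The conserved linker that joins neighbouring fingers was counted only as the exact residues TGEKP directly after a finger, without variants. In this form it followed 47.7% of the 1592 fingers of KRAB members and 19.5% of the 722 fingers of the other members.

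The coding bases of 1 finger from each of 7 members are given 5′ to 3′ from the GENCODE M21 transcripts (mm10), because they show what most members share and how Zfp593 and Zfp36l2 depart from it. Capitals mark the codons of the zinc-binding residues, cysteine, cysteine, histidine and histidine in the C2H2 fingers, and cysteine, cysteine, cysteine and histidine in the CCCH finger of Zfp36l2. The first 5 end with the codons of the linker, which the fingers of Zfp593 and Zfp36l2 lack.
Zfp945: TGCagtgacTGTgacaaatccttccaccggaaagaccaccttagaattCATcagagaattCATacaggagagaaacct
Zfp54: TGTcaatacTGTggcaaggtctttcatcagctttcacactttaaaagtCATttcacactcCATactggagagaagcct
Zfp429: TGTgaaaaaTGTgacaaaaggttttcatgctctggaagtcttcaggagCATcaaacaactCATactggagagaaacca
Zfp773: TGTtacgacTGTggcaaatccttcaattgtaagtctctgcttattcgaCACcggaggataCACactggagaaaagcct
Zfp217: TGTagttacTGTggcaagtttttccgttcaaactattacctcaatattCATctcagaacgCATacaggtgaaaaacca
Zfp593: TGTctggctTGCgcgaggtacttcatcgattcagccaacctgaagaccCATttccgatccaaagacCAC
Zfp36l2: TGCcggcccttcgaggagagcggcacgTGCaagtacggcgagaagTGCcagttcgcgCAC
Aligned base by base, the 5 fingers with a linker were 50% to 67.9% identical in pairs. Zfp945 and Zfp54 lie on chromosome 17 (mm10, chr17:22846697-22867134, minus strand, and chr17:21423227-21435640, plus strand), Zfp429 on chromosome 13 (chr13:67387905-67399819, minus strand) and Zfp773 on chromosome 7 (chr7:7127073-7136755, minus strand). Whole coding sequences can be far closer than single fingers: 14 members shared a stretch of at least 300 bases at 95% identity or more with another protein-coding gene, and their levels are uncertain where the authors' counting could split reads between copies. Of the 26 members called below, Zfp984 (with Gm13212) and Zfp429 (with Rsl1) were such genes.

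Promoters are shown for Zfp945 and Zfp54, KRAB genes of the same chromosome 17 cluster that were both called higher, and for Zfp217, a member without a KRAB box that was also higher. They are RefSeq windows of build GRCm38.p6, 250 bases before to 50 after the annotated start, at chr17:22867085-22867384 (minus strand), chr17:21422977-21423276 (plus strand) and chr2:170131171-170131470 (minus strand). In each of these 3 genes the strongest start event of the tables began at the annotated start itself. None of these starts was among the single start events called below. That of Zfp217, which has further starts elsewhere, differed by 0.49 (SE 0.23, limma adjusted p = 0.297), with overlapping groups. Capitals mark matches, on either strand, to GGGCGG (the GC box) or CCGGAAG (an ETS motif).
Zfp945: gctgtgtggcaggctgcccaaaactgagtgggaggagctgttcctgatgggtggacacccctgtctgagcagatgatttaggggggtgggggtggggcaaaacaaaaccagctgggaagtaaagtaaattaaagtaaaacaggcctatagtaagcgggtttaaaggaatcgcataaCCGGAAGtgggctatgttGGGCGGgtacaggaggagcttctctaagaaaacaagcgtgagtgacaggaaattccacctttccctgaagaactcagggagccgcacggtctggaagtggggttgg
Zfp54: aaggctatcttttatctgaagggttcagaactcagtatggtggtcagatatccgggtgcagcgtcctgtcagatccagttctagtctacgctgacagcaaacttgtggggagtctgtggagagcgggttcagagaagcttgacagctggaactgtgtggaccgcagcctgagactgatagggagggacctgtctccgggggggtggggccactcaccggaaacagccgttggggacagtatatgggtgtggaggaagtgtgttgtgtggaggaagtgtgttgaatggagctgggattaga
Zfp217: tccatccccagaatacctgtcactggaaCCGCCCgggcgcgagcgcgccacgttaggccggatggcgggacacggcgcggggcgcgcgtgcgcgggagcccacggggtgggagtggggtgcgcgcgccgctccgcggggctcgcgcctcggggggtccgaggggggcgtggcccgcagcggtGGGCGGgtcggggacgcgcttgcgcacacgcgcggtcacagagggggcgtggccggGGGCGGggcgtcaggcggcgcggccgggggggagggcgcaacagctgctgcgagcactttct
A window with its start within 200 bases of the strongest start event existed for 102 of 129 KRAB members, 62 of 91 other members and 5785 of 8623 tested protein-coding genes. KRAB members had a median of 12 CpG dinucleotides and a median GC content of 52.5% in this window, against 22 and 60.5% in the other members and 22 and 61.7% in all. GGGCGG was found in 39.2% of KRAB members' windows, 58.1% of the other members' and 70.2% of all. CCGGAAG was found in 21.6%, 16.1% and 23.0% of the same sets, and TGACGTCA, the cAMP response element, in 1.96%, 3.23% and 3.75%. TGATGNAA, the element shared by C/EBP and ATF factors, was in 0 of 102 and 0 of 62 members' windows and in 1.97% of all windows. A window counted once per motif, on either strand, and matches of different motifs may overlap. A match is a description of the sequence only.

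The genotype labels were first checked at Hspa9 itself. Its summed level was 117.2, 123.5 and 109.7 FPKM in the Hspa9 cKO libraries, against 105.4, 121.2 and 121.7 FPKM in the WT libraries, a log2 change of 0.01 (SE 0.09, exact two-sided permutation p = 0.9, n = 3 each, the smallest possible being 0.1). The event that includes 3 inner exons of Hspa9 stood at 24.9, 16.8 and 25.2 FPKM in Hspa9 cKO, against 105, 109 and 105 FPKM in WT. The event that joins the flanking exons directly stood at 76.9, 89.4 and 68.9 FPKM in Hspa9 cKO, against 0, 12.3 and 16.9 FPKM in WT. The groups were thus far apart in the structure of the transcript and not in its total, while 2 WT libraries also carried some of the direct join. Libraries correlated at 0.954 to 0.962 within groups and 0.930 to 0.939 across them (Pearson, log2 of FPKM + 1, across genes). Of 13 tested DN3 markers, 7 were called higher and 1 lower in Hspa9 cKO, with a summed level of 3120 to 3386 FPKM, against 2530 to 2799 FPKM in WT. The marker called lower was Tcf7 (log2 change -0.77). Among those called higher, Dtx1 and Rag2 changed sign from transcript ends (-0.93 and -0.92), while Il2ra, Ptcra, Notch1, Notch3 and Cd3g stayed positive. Of 4 tested markers of CD4 CD8 double-positive thymocytes, 3 were called lower, with a summed level of 19.5 to 21.5 FPKM in Hspa9 cKO, against 29.6 to 31.8 FPKM in WT. For both marker lists the background over all genes tested was 7.88% called higher and 5.5% called lower. Among genes listed as markers of other cells, the B cell gene Cd79b (log2 change 0.54, limma adjusted p = 0.0373), the epithelial gene Epcam (0.47, adjusted p = 0.0201) and the natural killer gene Nkg7 (0.90, adjusted p = 0.00228) were called higher in Hspa9 cKO, and Gzma (-0.29, adjusted p = 0.0355) was called lower. The B cell genes Cd79a, Ms4a1 and Pax5, the erythroid gene Hba-a1 and the epithelial genes Krt5, Krt8 and Foxn1 had no level, but the T lineage gene Gata3 had none either and Lck was at 0 in 5 of 6 libraries, so a missing level does not show that a gene was silent. In bulk libraries fewer cells of a type and less RNA per cell cannot be told apart, and the part of a shift in cell states in the Zfp results was not tested.

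Most Zfp genes had a higher level in Hspa9 cKO, by a small margin. All differences are of log2(FPKM + 1), a scale on which low genes change less than their true ratio. On it, 170 of 220 members (77.3%) had a positive difference, against 56.4% of all 9170 genes tested. The median member differed by 0.30, a factor of 1.23, and the median of all genes tested by 0.06. By limma's moderated test with Benjamini-Hochberg adjustment over all genes and a threshold of 0.05, 24 members (10.9%) were called higher, against a background of 7.88% of all genes tested, and 2 members (0.909%) were called lower, against 5.5%. With a trend on transcript length and GC content removed, 15 members were called higher and 3 lower, and over all genes 610 and 678 in place of 723 and 504. The share of members called higher was then 6.82%, against 6.66% of all genes, and from transcript ends it was 7.69%, against 7.64%, so in both the members' share was at the background. In the fit from transcript ends, genes without an end event kept their start level. Without Hspa9 cKO replicate 1, 2 or 3 the members called higher numbered 8, 5 and 4, and without WT replicate 1, 2 or 3 they numbered 11, 18 and 12, with 0 or 1 called lower. The members' share called higher was 3.64%, 2.27% and 1.82% without those Hspa9 cKO libraries in turn, against 3.10%, 3.27% and 2.89% of all genes, and 5%, 8.18% and 5.45% without the WT libraries, against 3.88%, 5.20% and 4.62%. The count of higher calls therefore gives no stable excess over its background. The 3 Hspa9 cKO libraries all lay above the 3 WT libraries for 92 members (41.8%), against 22.9% of all genes tested, and all below for 8 members (3.64%), against 15.7%.

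The shift was broad, and most differences were small. Of the 220 members, 5 differed by 1 or more on the log2 scale, all upward, and 1 of these, Zfp36l2, rested on a single library. Of the 8950 other genes tested, 241 differed by as much upward and 85 downward. Summed over the 220 members, the level was 1633, 1695 and 1632 FPKM in Hspa9 cKO, against 1426, 1463 and 1399 FPKM in WT, a ratio of means of 1.16. The summed level of all genes tested ran the other way, with a ratio of 0.944. Per library, 213 to 218 of the members reached 1 FPKM in Hspa9 cKO, against 188 to 200 in WT. That count uses the limit that chose the members and was not made for all genes, so it does not count toward the shift.

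The limit of 1 FPKM also bears on the shift itself. Of the 220 members, 15 had a mean of at least 1 FPKM in Hspa9 cKO alone and 2 in WT alone, and such genes had to differ. Among the 203 members at or above 1 FPKM in both groups, 21 (10.34%) were called higher and 2 (0.9852%) lower. Over the 8858 such genes of any kind, 7.496% were called higher and 5.543% lower. The median was 0.26 over these 203 members, against 0.05 over the 8858 genes. Of the 17 members on either side of the limit, Zfp945, Zfp773 and Zfp467 were called, all higher in Hspa9 cKO, which alone lifted them over it. Just inside the limit stood Zfp128, Zfp759 and Zfp976 with means of 1.08, 1.08 and 1.05 FPKM, and just outside it Zfp229, Zfp827 and Zfp821 with 0.998, 0.959 and 0.958 FPKM.

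**Figure D1:**
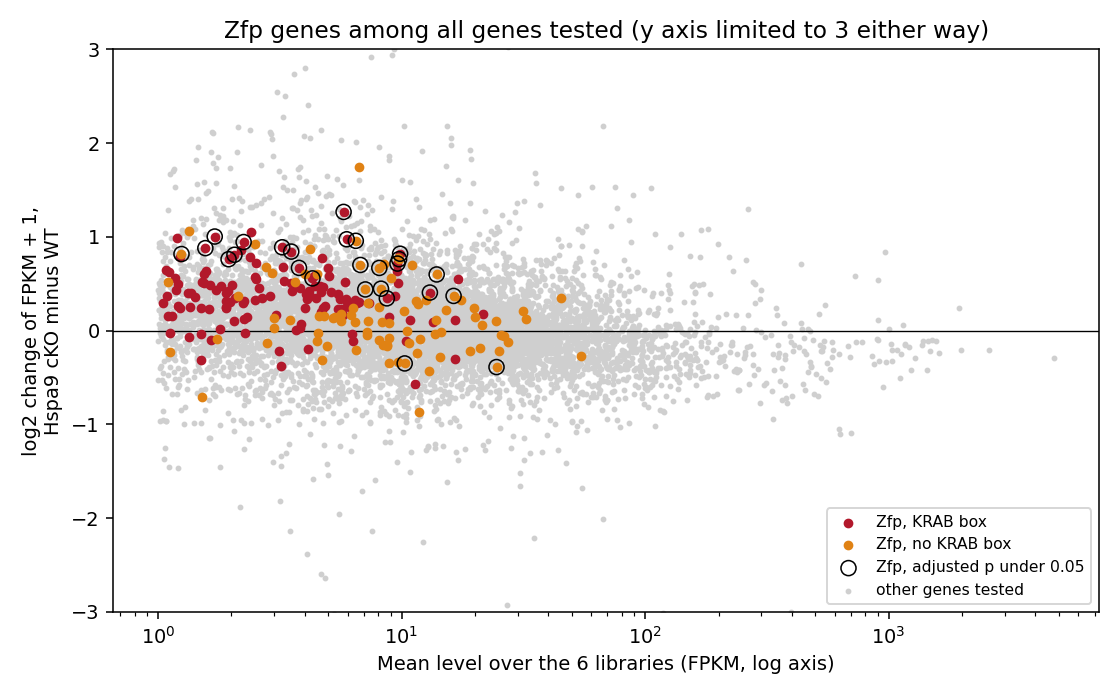
Log2 change of FPKM + 1 (Hspa9 cKO minus WT) against mean level over the 6 libraries (FPKM, log axis) for Zfp genes with a KRAB box (red), Zfp genes without one (orange) and the other genes tested (grey); black circles mark the 24 Zfp genes called higher and the 2 called lower. Most red points lie above 0, while orange points spread on both sides.

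Positive differences were most frequent among members with a KRAB box. Of 129 KRAB members, 115 (89.1%) had a positive difference, 15 were called higher and 0 lower, and the median change was 0.37, a factor of 1.29. The 15 calls were 11.6% of the KRAB members, against the 7.88% of all genes. The groups did not overlap upward for 67 KRAB members (51.9%), against 22.9% of all genes, and downward for 2 (1.55%), against 15.7%. Among the 91 members without a KRAB box, 55 (60.4%) had a positive difference, and the median change was 0.11. Of these 91, 9 (9.89%) were called higher and 2 (2.20%) lower, against 7.88% and 5.5% of all genes. The share called higher was thus close to that of the KRAB members. The 129 KRAB members summed to 633, 620 and 627 FPKM in Hspa9 cKO, against 485, 476 and 456 FPKM in WT, so the libraries of the groups stood far apart for this sum. The 91 other members summed to 999, 1075 and 1005 FPKM in Hspa9 cKO, against 941, 987 and 944 FPKM in WT. The ratios of the means were 1.33 and 1.07. KRAB members were also lower in level, with a median of 3.23 FPKM, against 8.35 FPKM for the other members. Low genes in general had larger positive differences in these data, as given below. No test of the difference between the KRAB and the other members was made, and the part of level in it was not tested.

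**Figure D2:**
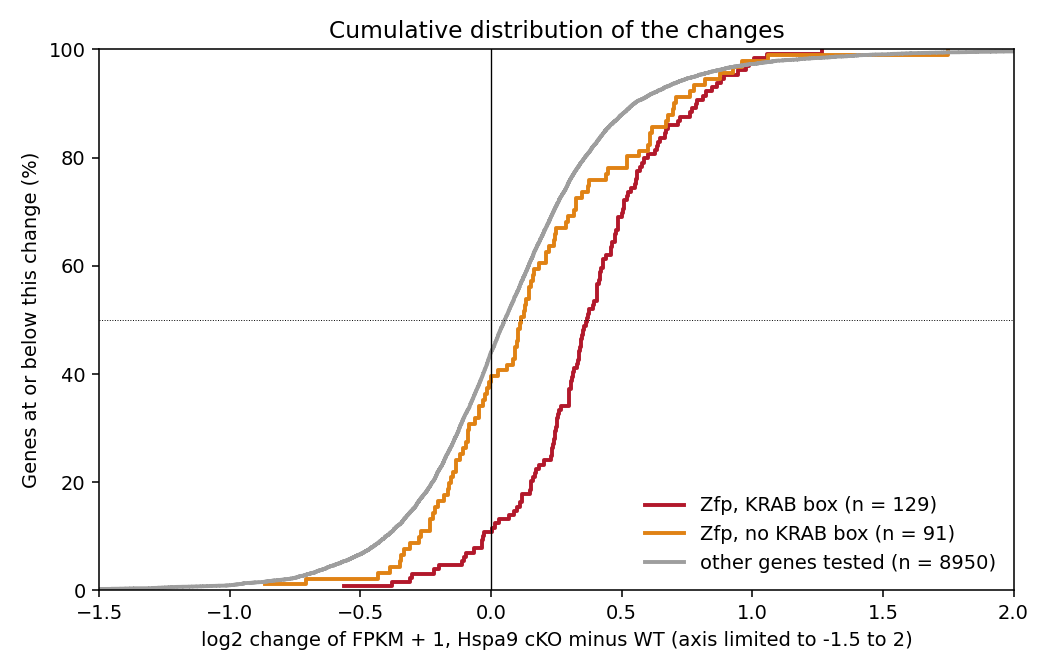
Share of genes (%) at or below each log2 change of FPKM + 1 (Hspa9 cKO minus WT) for Zfp genes with a KRAB box, Zfp genes without one and the other genes tested. The curve of the 129 KRAB members crosses 50% at 0.37, that of the 91 other members at 0.11 and that of the 8950 other genes at 0.05.

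KRAB genes that carry other names were set beside them. Of 24 tested genes with a KRAB box and C2H2 fingers but no Zfp symbol, 23 had a positive difference, with a median of 0.36. Of these 24, 3 (12.5%) were called higher and 0 lower, against 7.88% and 5.5% of all genes tested. Genes with at least 2 C2H2 fingers but neither a Zfp symbol nor a KRAB box had a median of 0.13 over 103 genes. Of these 103, 8 (7.77%) were called higher and 4 (3.88%) lower, beside the same shares of all genes. The 25 tested Zbtb genes, whose proteins pair C2H2 fingers with a BTB domain, had a median of 0.11 and no call. Within the Zfp genes, 8 carried a SCAN domain, a dimerisation module, and all 8 had a positive difference, with a median of 0.40 and 1 call, Zfp397.

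The KRAB members with the largest calls were low to moderate in level. Zfp169 had 8.59, 7.54 and 9.17 FPKM in Hspa9 cKO, against 5.04, 1.96 and 2.34 FPKM in WT. Zfp945 had 2.23, 2.82 and 2.78 FPKM in Hspa9 cKO, against 1.02, 0.568 and 0.824 FPKM in WT, so it passed the limit of 1 FPKM only through the group where it was high. Zfp54 had 3.19, 3.48 and 3.14 FPKM in Hspa9 cKO, against 1.33, 1.23 and 1.097 FPKM in WT. In each of the 3 genes the lowest Hspa9 cKO library stood above the highest WT library, and the standard error was smallest for Zfp54. The log2 changes were 1.27 (SE 0.28, limma adjusted p = 0.0353) for Zfp169, 1.005 (SE 0.16, adjusted p = 0.0138) for Zfp945 and 0.95 (SE 0.11, adjusted p = 0.00653) for Zfp54. From transcript ends, Zfp169 differed by 0.64 and was no longer called, and Zfp945 differed by 1.09. Leaving out a library never ended the call of Zfp54 (adjusted p of 0.0223 to 0.0339), ended that of Zfp945 without Hspa9 cKO replicate 2 or 3 (up to 0.0576) and ended that of Zfp169 in every case except without WT replicate 1 (up to 0.110).

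Zfp773 had 2.08, 2.44 and 2.45 FPKM in Hspa9 cKO, against 0.954, 0.631 and 0.832 FPKM in WT, and rose by 0.88 (SE 0.14, limma adjusted p = 0.0143), but it too passed the limit only through Hspa9 cKO. Zfp688 had 4.46, 4.53 and 4.44 FPKM in Hspa9 cKO, against 1.75, 2.62 and 1.59 FPKM in WT, and rose by 0.89 (SE 0.15, adjusted p = 0.0173). Zfp235 had 2.92, 2.72 and 2.97 FPKM in Hspa9 cKO, against 0.754, 1.15 and 1.84 FPKM in WT, and rose by 0.81 (SE 0.20, adjusted p = 0.0456). The Hspa9 cKO libraries of these 3 genes lay close together, and the WT libraries of Zfp235 spread over more than 1 FPKM. The call of Zfp235 was lost with a pseudocount of 0.1, with no filter, under both rescalings, with the length and GC trend removed and from transcript ends. The call of Zfp773 was lost without Hspa9 cKO replicate 2 or 3 (adjusted p up to 0.0591), that of Zfp688 without any Hspa9 cKO library and without WT replicate 1 (up to 0.0649), and that of Zfp235 without any library but WT replicate 3 (up to 0.129).

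Zfp429, Zfp455 and Zfp866 were called too, but part of their start signal sits on exon edges of neighbouring genes that the tables place under the same gene ID. That part was 27.3% for Zfp429 (on Zfp456 and Zfp595), 66.4% for Zfp455 (on Rsl1) and 13.2% for Zfp866 (on Zfp963). Zfp429 had 9.85, 7.39 and 7.39 FPKM in Hspa9 cKO, against 3.17, 4.50 and 3.38 FPKM in WT (log2 change 0.98, SE 0.16, limma adjusted p = 0.0167). Zfp455 had 5.22, 4.83 and 4.32 FPKM in Hspa9 cKO, against 1.93, 2.88 and 1.94 FPKM in WT (0.84, SE 0.15, adjusted p = 0.0203). Zfp866 had 13.0, 12.2 and 13.3 FPKM in Hspa9 cKO, against 5.44, 7.23 and 8.01 FPKM in WT (0.82, SE 0.14, adjusted p = 0.0176). The groups did not overlap for any of the 3. Placed by exon edge alone, Zfp429 differed by 0.95 and Zfp866 by 0.83, and Zfp455 was below the limit of 1 FPKM. The remaining KRAB members called higher were Zfp984, Zfp61, Zfp39, Zfp74, Zfp87 and Zfp85, with log2 changes of 0.35 to 0.76. When single libraries were left out, Zfp87 stayed called in all 6 fits, Zfp866 was lost without any Hspa9 cKO library (adjusted p up to 0.0679), Zfp429 without Hspa9 cKO replicate 1 or 3 or WT replicate 1 or 3 (up to 0.0575), and Zfp455 in all fits but that without WT replicate 2 (up to 0.0723).

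**Figure D3:**
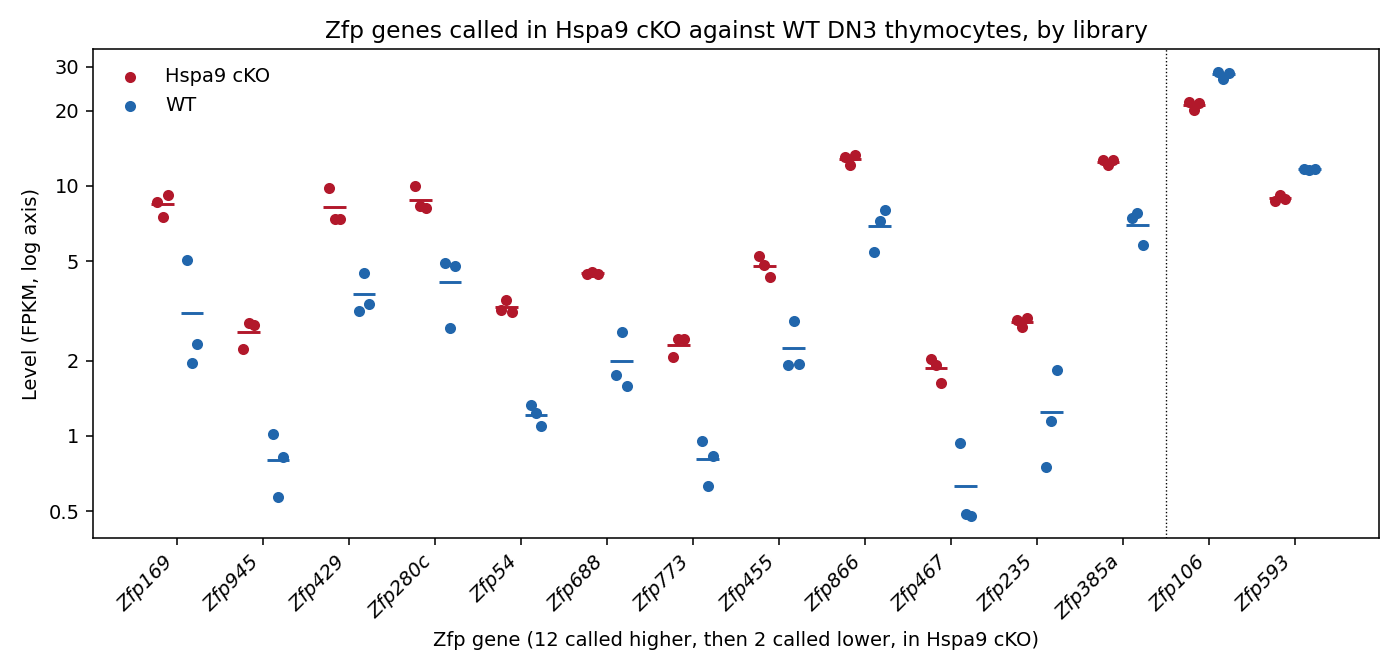
Level in each library (FPKM, log axis) of the 12 Zfp genes with the largest calls upward and the 2 called downward, Hspa9 cKO in red left of WT in blue; points are libraries and lines are group means. For all 14 genes the points of the groups do not overlap.

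Of the 9 members called higher without a KRAB box, Zfp217 had the smallest adjusted p. ZFP217 works with the CtBP and LSD1 corepressors, and its human counterpart is amplified in breast cancer. It had 16.9, 16.1 and 17.9 FPKM in Hspa9 cKO, against 11.2, 10.8 and 10.6 FPKM in WT, with libraries tightly grouped on each side. The log2 change was 0.60 (SE 0.08, limma adjusted p = 0.00803), and the call was kept when any single library was left out. Zfp385a, a p53 target that steers p53 toward cell cycle arrest genes, had 12.8, 12.1 and 12.7 FPKM in Hspa9 cKO, against 7.47, 7.76 and 5.79 FPKM in WT (0.76, SE 0.12, adjusted p = 0.0140). Zfp280c, whose human counterpart limits resection at DNA breaks, had 10.004, 8.30 and 8.15 FPKM in Hspa9 cKO, against 4.94, 2.71 and 4.79 FPKM in WT (0.96, SE 0.21, adjusted p = 0.0344). From transcript ends Zfp280c differed by only 0.21 and was not called. Zfp467, a factor studied in bone and fat cell fate, had 2.02, 1.92 and 1.64 FPKM in Hspa9 cKO, against 0.934, 0.488 and 0.478 FPKM in WT (0.82, SE 0.17, adjusted p = 0.0304), and passed the limit only through Hspa9 cKO. Zfp638, Zfp397, Zfp260, Zfp704 and Zfp512 completed the list, with log2 changes of 0.37 to 0.70. Human ZNF638 guides the HUSH silencing complex to unintegrated retroviral DNA, and Zfp638 had 10.7, 11.1 and 8.80 FPKM in Hspa9 cKO, against 5.92, 6.30 and 5.80 FPKM in WT. Leaving out a library ended the call of Zfp385a without Hspa9 cKO replicate 1 or 3 (adjusted p up to 0.0563), that of Zfp280c without any library but WT replicate 2 (up to 0.104) and that of Zfp467 without any but WT replicate 1 (up to 0.0940).

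The 2 members called lower had no KRAB box. Zfp106, an RNA-binding protein needed to maintain motor neurons and muscle, had 21.6, 20.2 and 21.5 FPKM in Hspa9 cKO, against 28.6, 26.7 and 28.4 FPKM in WT, and fell by 0.39 on the log2 scale (SE 0.07, limma adjusted p = 0.0215). Zfp593, whose yeast counterpart Bud20 takes part in export of the large ribosomal subunit precursor, had 8.70, 9.19 and 8.91 FPKM in Hspa9 cKO, against 11.6, 11.6 and 11.7 FPKM in WT, and fell by 0.35 (SE 0.07, adjusted p = 0.0326). Both differences were small and the libraries within each group nearly equal. The call of Zfp593 was lost without any 1 of the 6 libraries (adjusted p of 0.0728 to 0.0959), and that of Zfp106 without any but WT replicate 2 (up to 0.0722). Zfp593 overlaps E130218I03Rik on the opposite strand, and no source used here says whether the authors' counting used strand.

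Of 21 C2H2 members with well-studied roles, chosen by function, 19 were kept, 1 was called higher (Zfp217), 1 lower (Zfp593) and 17 not called, with a median change of -0.06. Over all genes tested, 7.88% were called higher and 5.5% lower. Zfp57, which guards imprinted methylation, stayed at 0 to 0.143 FPKM, and Zfp318 stayed at 0.269 to 0.601 FPKM in Hspa9 cKO and 0.693 to 1.23 FPKM in WT. Zfp809, which silences murine leukaemia proviruses, had 8.03, 7.18 and 6.64 FPKM in Hspa9 cKO, against 6.37, 4.59 and 5.88 FPKM in WT. The groups of Zfp809 did not overlap, but the log2 change of 0.33 (SE 0.14) gave a limma adjusted p of 0.164. Zfp445, a KRAB protein of imprint maintenance, differed by 0.18 (SE 0.13, adjusted p = 0.394), and Zfp568, which restrains placental Igf2 transcripts, by -0.10 (SE 0.21, adjusted p = 0.798). Zfp335, required for the maturation and export of thymocytes, had 10.5, 14.0 and 8.29 FPKM in Hspa9 cKO, against 16.8, 12.8 and 15.1 FPKM in WT. Its groups overlapped, with a log2 change of -0.43 (SE 0.20, adjusted p = 0.193) from starts and 0.07 from transcript ends.

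Zfp687 and Zfp592, subunits of a complex with ZMYND8, differed by 0.29 (SE 0.13, limma adjusted p = 0.190) and -0.13 (SE 0.11, adjusted p = 0.473). The groups of Zfp687 did not overlap. Log2 changes lay between -0.22 and 0.11 for Zfp622 (ribosome assembly), Zfp326 (splicing and elongation), Zfp451 (a SUMO ligase), Zfp143 and Zfp281 (promoter-bound factors), Zfp91 (a ubiquitin ligase), Zfp148, Zfp746 and Zfp410 (an activator of Chd4), all with an adjusted p of 0.322 or more. The 6 members with the highest mean level, Zfp207, Zfp219, Zfp362, Zfp740, Zfp706 and Zfp598, were not called. Zfp207, a spindle protein that protects BUB3, had 53.4, 47.8 and 45.8 FPKM in Hspa9 cKO, against 50.2, 56.1 and 73.4 FPKM in WT (log2 change -0.27, SE 0.15, adjusted p = 0.283). Zfp598, the ubiquitin ligase that senses collided ribosomes, differed by -0.06 (SE 0.12, adjusted p = 0.768). Zfp706, which restrains Klf4 in embryonic stem cells, did not overlap between groups, with 26.0, 26.1 and 26.4 FPKM in Hspa9 cKO, against 28.2, 29.1 and 28.3 FPKM in WT, at a log2 change of -0.12 (SE 0.06, adjusted p = 0.260). Zfp219 differed by 0.35 (SE 0.17, adjusted p = 0.214), Zfp362 by 0.13 (SE 0.08, adjusted p = 0.338) and Zfp740 by 0.21 (SE 0.18, adjusted p = 0.480).

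Of the CCCH proteins, Zfp36 and Zfp36l1 had no level in the tables and Zfp36l2, which limits proliferation of early thymocytes, was listed in a single library, at 8.07 FPKM in Hspa9 cKO replicate 1 and 0 in the other 5. The start event behind this value is on the plus strand while the gene is on the minus strand. An exact 0 in these tables can be a failed estimate, so no direction is drawn for it. Among 15 tested genes of the RNA decay machinery these proteins recruit, 0 were called higher, 14 were not called and Tob1 was called lower, with 3.69, 2.72 and 2.74 FPKM in Hspa9 cKO, against 7.22, 6.42 and 5.10 FPKM in WT (log2 change -0.84, SE 0.16, limma adjusted p = 0.0243). That call was lost without Hspa9 cKO replicate 2 or 3 or WT replicate 1 or 2 (adjusted p up to 0.0844). The shares called over all genes tested were 7.88% higher and 5.5% lower.

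The partners of the KRAB box were followed alongside. Of 35 tested genes of the corepressor complex and its chromatin partners, 2 were called higher and 5 lower, with a median change of -0.01, against 7.88% higher and 5.5% lower over all genes tested. Trim28, the corepressor bound by canonical KRAB boxes, had 142, 147 and 149 FPKM in Hspa9 cKO, against 182, 182 and 181 FPKM in WT, and fell by 0.32 (SE 0.06, limma adjusted p = 0.0200). Its groups were well apart, in the direction opposite to that of most KRAB members. Setdb1, the methyltransferase, had 9.19, 15.5 and 16.3 FPKM in Hspa9 cKO, against 14.0, 12.6 and 12.8 FPKM in WT, with overlapping groups (0.01, SE 0.21, adjusted p = 0.972). Rbbp4, Rbbp7 and Gatad2a of the NuRD deacetylase complex fell by 0.32, 0.32 and 0.31 (adjusted p = 0.0242, 0.0323 and 0.0338), and Hells, a remodeller needed for DNA methylation of repeats, fell by 0.59 (adjusted p = 0.0498). The call of Hells was also lost with no filter, by exon edge, without variance trend or robustness, and from transcript ends, where its change was -0.37. Fam208a, the TASOR subunit of the HUSH complex, rose by 0.74 (SE 0.16, adjusted p = 0.0325), with 5.59, 5.32 and 6.07 FPKM in Hspa9 cKO, against 2.84, 3.88 and 2.37 FPKM in WT. Morc3, an ATPase that silences endogenous retroviruses, rose by 1.56 (SE 0.19, adjusted p = 0.00723), with 8.80, 9.44 and 8.73 FPKM in Hspa9 cKO, against 3.02, 2.83 and 1.54 FPKM in WT. From transcript ends Morc3 differed by 0.11 only (adjusted p = 0.603), although it stayed called whichever library was left out. Trim28 was lost without any Hspa9 cKO library and without WT replicate 1 (adjusted p up to 0.0684), and the other 5 genes were lost in 5 or 6 of the 6 such fits (up to 0.129).

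Zfp genes were lower in level than most genes, with a median of 4.67 FPKM against 10.4 FPKM over all genes tested, and low genes in general had the larger positive differences in these data. The members were therefore set beside the other genes at the same level. At 1 to 2 FPKM the median log2 change was 0.40 over 47 members and 0.20 over 750 other genes. At 2 to 5 FPKM it was 0.39 over 71 members and 0.16 over 1619 other genes, and at 5 to 10 FPKM 0.30 over 58 members and 0.11 over 1925 other genes. At 10 FPKM or more it was 0.08 over 44 members and -0.02 over 4656 other genes. Members thus had the higher median in each class, with the smallest distance in the top class, which held 9 KRAB members. From the lowest class to the top one, the KRAB members' medians were 0.40, 0.42, 0.34 and 0.11, over 41, 53, 26 and 9 genes.

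**Figure D4:**
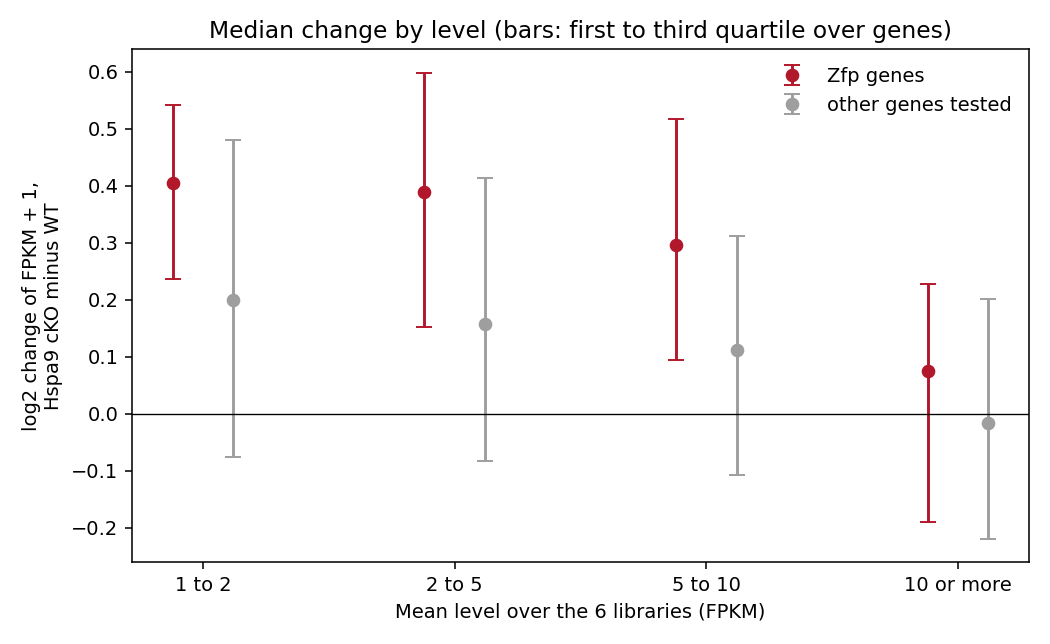
Median log2 change of FPKM + 1 (Hspa9 cKO minus WT) of Zfp genes (red, left) and other genes tested (grey, right) in 4 classes of mean level in FPKM; bars run from the first to the third quartile over genes. The red median lies above the grey one in each class, from 0.40 against 0.20 at 1 to 2 FPKM to 0.08 against -0.02 at 10 FPKM or more.

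The members also differed from other genes in transcript make-up. The members' principal transcripts had a median GC content of 44.1%, 41.3% for KRAB members, against 50.1% over all genes tested, and a median length of 3424 bases, against 2851. With a trend on length and GC removed over all genes, the median member differed by 0.21, the median KRAB member by 0.27 and the median member without a KRAB box by 0.04, and 15 members were called higher and 3 lower. Within the members, the rank correlation of the change with GC content was -0.16 and with the number of fingers 0.235 (Spearman's rho across 220 genes, which share their libraries and are not independent).

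Members of tandem clusters mostly had positive differences. With at most 500 kb between neighbours and at least 3 members, there were 15 clusters holding 100 members, and in 7 clusters every member had a positive difference. The largest, on chromosome 17 (chr17:21008903-23564238), held 16 members from Zfp160 to Zfp213, 15 of them with a KRAB box. Their log2 changes ran from 0.24 to 1.06 with a median of 0.44, and Zfp54 and Zfp945 were called. Zfp758 of the same cluster had 4.13, 2.85 and 3.69 FPKM in Hspa9 cKO, against 1.98, 1.36 and 0.468 FPKM in WT, and missed the threshold (1.06, SE 0.28, limma adjusted p = 0.0597). On chromosome 13 (chr13:67038596-67827002) 12 KRAB members differed by 0.15 to 0.98 with a median of 0.61, and Zfp455, Zfp429, Zfp87 and Zfp85 were called. Of the start signal of Zfp87, 51.3% lay on exon edges of Zfp58 and Zfp874b.

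In 5 of the other 13 clusters, too, every member had a positive difference, among them 7 members on chromosome 7 (chr7:12415153-12985714) with a median of 0.52 and no call. The 10 KRAB members on chromosome 17 from Zfp871 to Zfp101 had a median of 0.24 and no call. On chromosome 7 the 10 members from Zfp84 to Zfp382 ran from -0.23 to 0.99, and Zfp74 and Zfp260 were called. The cluster of 5 members on chromosome 9 included the lowest KRAB member of all, Zfp266, with 7.87, 11.0 and 7.83 FPKM in Hspa9 cKO, against 17.9, 12.9 and 10.5 FPKM in WT (-0.56, SE 0.22, limma adjusted p = 0.143). The 100 clustered members had a median of 0.37 and 14 higher calls (14%). The 120 others had a median of 0.24, with 10 higher (8.33%) and 2 lower (1.67%) calls. A KRAB box was present in 81 of the clustered members and 48 of the others, and among these KRAB members the medians were closer, 0.40 in clusters and 0.34 outside. The 42 tested genes inside the cluster spans that were neither Zfp nor KRAB genes had a median of -0.02. Of these 42, 3 (7.14%) were called higher and 2 (4.76%) lower, against 7.88% and 5.5% of all genes tested.

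**Figure D5:**
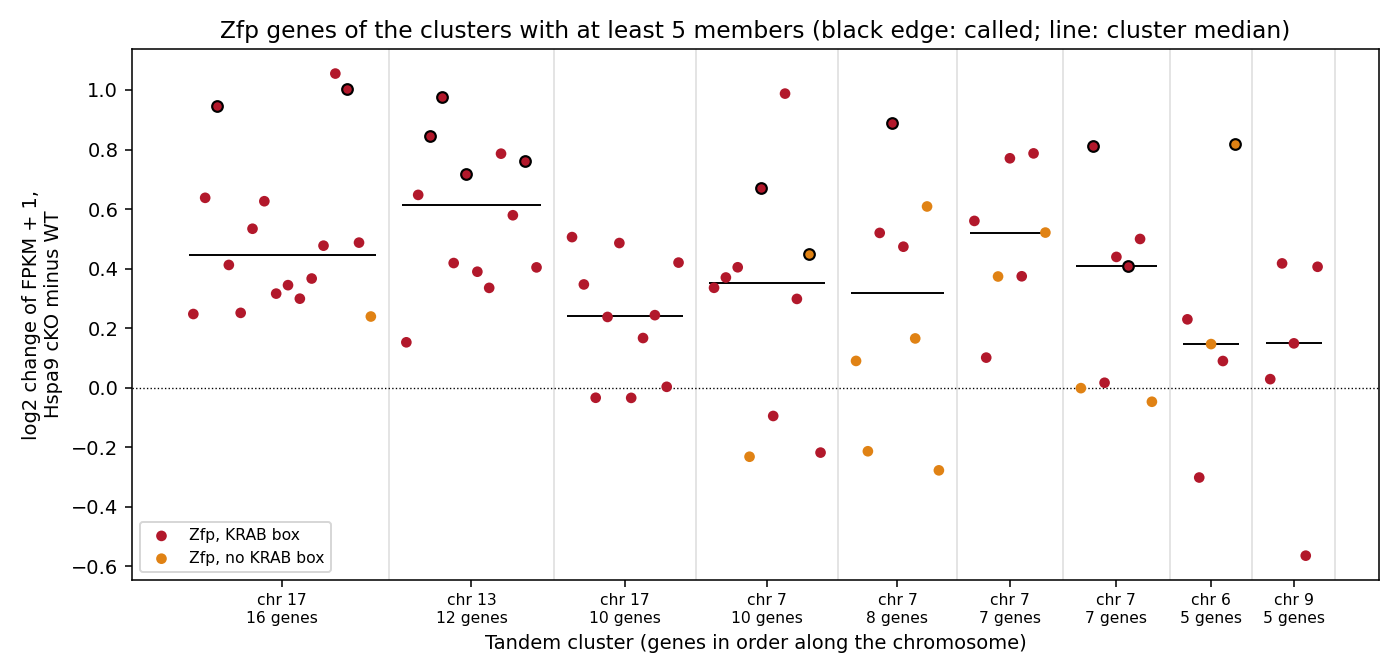
Log2 change of FPKM + 1 (Hspa9 cKO minus WT) of each Zfp gene in the tandem clusters with at least 5 members, in order along the chromosome; red marks a KRAB box, orange none, a black edge a called gene and the line the cluster median. All 16 members of the first chromosome 17 cluster and all 12 of the chromosome 13 cluster lie above 0.

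Single start events gave fewer calls. Of 280 tested start events in 213 members, 4 were called higher (Zfp169, Zfp385a, Zfp61 and Zfp866), against a background of 2.85% of start events, and 1 lower, against 2.58%. The start called lower, in Zfp646, had 9.24, 9.62 and 8.41 FPKM in Hspa9 cKO, against 16.2, 16.4 and 12.6 FPKM in WT (-0.66, SE 0.13, limma adjusted p = 0.0481), while the gene's summed level was not called (-0.28, adjusted p = 0.235). A weaker start of Zfp646 ran the other way, with 2.70, 4.14 and 4.31 FPKM in Hspa9 cKO, against 1.499, 0.848 and 0.176 FPKM in WT, and was not called (1.41, SE 0.34, adjusted p = 0.0841). The called start of Zfp61 rose by 0.97 (SE 0.19, adjusted p = 0.0487), above the 0.41 of the whole gene, whose transcript ends differed by 0.06.

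Of 146 tested splicing ratios in 55 members, 0 were called by limma, against a background of 0.189%, and 15 had an unadjusted p under 0.05. The lowest p belonged to a skipped exon of Zfp207, included in 42.6%, 44.7% and 46.4% of the paired signal in Hspa9 cKO, against 25.7%, 32.9% and 21.4% in WT. The groups did not overlap, but the adjusted p was 0.357.

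A few members varied widely between replicates. Zfp513 had the largest change of any member, 1.75 (SE 0.54, limma adjusted p = 0.0880), with 9.06, 11.8 and 9.83 FPKM in Hspa9 cKO, against 0.855, 7.13 and 1.45 FPKM in WT. Zfp408 had 0.237, 0.188 and 0.579 FPKM in Hspa9 cKO, against 7.99, 0.0655 and 0.0538 FPKM in WT, and so passed the limit through a single WT library. Zfp142 had 1.86, 3.67 and 3.53 FPKM in Hspa9 cKO, against 0.257, 5.55 and 0.0694 FPKM in WT, and Zfp384 4.91, 15.0 and 5.78 FPKM in Hspa9 cKO, against 11.6, 13.7 and 19.9 FPKM in WT. Neither was called. The log2 change of Zfp142 was 0.93 from starts and -0.43 from transcript ends, so its sign changed. That of Zfp384 was -0.87 from starts, the lowest of any member, and -0.30 from transcript ends. These 4 genes were named after their values were seen, as were Zfp758, Zfp266 and Zfp638. Over all members with both kinds of event, starts and ends gave a change of the same sign in 145 of 156, and in all 17 called members with an end level. Starts and ends are not independent, since many genes had a single transcript with the same value for both.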

How the data were processed

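RNA from DN3 thymocytes was sequenced in 3 Hspa9 cKO and 3 WT libraries, grouped by sample title. The labels' protocols name both poly(A) selection and removal of ribosomal RNA. The submitters' processing notes name cutadapt 1.9.1 and the build mm10; the sources used here give no aligner, assembler or strand setting. The authors deposited FPKM per transcript-structure event, per the file headers, already scaled to length and library size, so the tables hold no counts and give no depth.

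Start-event FPKM were summed per gene ID of the tables to give its level, each event once, and events not listed were set to 0. All 220 levels came from starts. Genes with a mean of at least 1 FPKM entered a test by limma 3.58.1 in R 4.3.3 on log2(FPKM + 1) (trended, robust variances, two-sided, groups only), with Benjamini-Hochberg adjustment over all 9170 genes at 0.05. The same test was used for start events. Splicing pairs whose 2 sides totalled 5 FPKM or more on average were tested as log2((inclusion + 1)/(exclusion + 1)), with robust variances but no trend. The test of gene levels was tried on simulated data. It called 14.9% of simulated log2 changes of 0.5, 52.2% of changes of 1 and 84.8% of changes of 2, with 7 false calls. A gene that was not called may therefore still differ, above all by a small amount. KRAB and SCAN domains were found with HMMER 3.4 profiles in translated GENCODE M21 principal transcripts, and near-identical copies with BLAST 2.17.0.

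Members and gene lists were chosen with earlier results of these data known. Named genes were, in each direction, the 12 called members that changed most and did not overlap between groups, the 6 highest members, the members of the function lists, those beside the 1 FPKM limit, and called corepressor genes. The labels do not say whether replicate numbers pair the libraries, and they were treated as unpaired. Deviations from the group means correlated at 0.0220, -0.00483 and -0.0276 for the 3 same-numbered pairs. With so few libraries this cannot exclude a pairing. Marker lists for progenitor, B, myeloid, natural killer, erythroid, epithelial and stromal cells were also summed: Hspa9 cKO and WT ranged over 6.62 to 8.97 and 7.42 to 9.13 FPKM for DN1 and DN2 progenitors, 15.3 to 18.3 and 9.76 to 12.6 for B cells (Cd79b alone), 74.3 to 77.4 and 63.1 to 75.0 for myeloid cells, 201.3 to 206.5 and 200.1 to 219.5 for natural killer and innate lymphoid cells, 36.7 to 43.0 and 27.2 to 29.1 for thymic epithelium (Epcam alone), and 24.8 to 26.6 and 20.8 to 22.8 for fibroblasts and endothelium. Erythroid markers were at 0 except 0.190 FPKM in 1 WT library.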

Additional observations from a re-analysis of the deposited data

How the results depend on the processing

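The direction of the Zfp genes' median was the same under every alternative tried. The median log2 change, 0.30 as reported, was 0.37 with a pseudocount of 0.1, 0.17 for genes at 5 FPKM or more (102 members), 0.26 with trimmed-mean and 0.27 with median-ratio scaling, 0.21 with the length and GC trend removed, 0.28 from transcript ends (182 members), 0.26 with events placed by exon edge, and 0.28 to 0.31 leaving out each library in turn. The count of higher calls depended on the processing: 24 (10.9% of members, against 7.88% of all genes) became 14 at 5 FPKM or more (13.7% against 7.89%), 18 and 19 under the rescalings (8.18% and 8.64% against 6.55% and 6.69%), 15 with the trend removed (6.82% against 6.66%), 14 from transcript ends (7.69% against 7.64%), 23 by exon edge (10.6% against 7.48%), 29 when 1 FPKM was asked of 3 libraries (13.4% against 8.40%) and 35 without variance trend or robustness (15.9% against 8.35%). Lower calls numbered 2, 1 from transcript ends and 3 under the rescalings and with the trend removed. In the fit from transcript ends, 156 of the 182 members had an end level and the rest kept their start level. The causes were not tested. Over all genes, 723 higher and 504 lower calls became 600 and 620 with trimmed means, and 610 and 678 with the trend removed. Leaving out a library gave 4 (without Hspa9 cKO replicate 3) to 18 (without WT replicate 2) higher and 0 to 1 lower calls; the other counts were 8 and 5 without Hspa9 cKO replicates 1 and 2, and 11 and 12 without WT replicates 1 and 3. Of the 26 called members, Zfp54, Zfp217 and Zfp87 kept their calls in each such fit. Zfp87 lost it from transcript ends and by exon edge.

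With a replicate block 0 Zfp genes were called higher and 0 lower (64 higher members at an unadjusted p under 0.05, against 77 without the block), over all genes 140 and 75, and Zfp start events gave 0 and 0. Whether the replicate numbers pair the libraries is not given. Start events at 5 FPKM or more gave 2 lower calls. None of 34 called genes (the called Zfp members, the called corepressor genes and Tob1) changed sign under any alternative. Of their 350 values outside the left-out libraries 72 missed the threshold, and of 204 with a library left out 141 did. The called markers were not in this count, and of these Dtx1 and Rag2 changed sign from transcript ends. Clusters numbered 14 at 100 kb and 18 at 1000 kb between neighbours, against 15. Depth, and so the counting error of low members, is unknown, and 21 Zfp genes that reach 1 FPKM by exon edge are not among the members because the tables list them under a neighbour.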
